A study of Macaca fascicularis with 34 samples.

Results

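Transcripts of 10 genes of mitosis were followed across 34 single cells of cynomolgus monkeys (Macaca fascicularis, subspecies fascicularis): MKI67, TOP2A, CCNA2, CCNB1, CCNB2, CDK1, BUB1, AURKA, AURKB and PLK1. They were chosen by human gene symbol as 10 of the 28551 genes in the deposited table, and each symbol stood on 1 row. The study measured transcripts of single cells around the time when primordial germ cells appear in the monkey embryo, by SC3-seq, a method that reads the 3′ ends of amplified cDNA from 1 cell. Per the labels, 9 cells came from male gonads, 6 at embryonic day (E) 36, 1 at E47 and 2 at E55. The other 25 cells came from embryos, 3 at E13, 1 at E14, 11 at E16, 2 at E17 and 8 at E20. The labels name neither a cell type nor an animal, give no treatment or genetic change, and mark the sex of the gonad cells alone. Cells of a stage may share an animal, so each stage counted as 1 sample, and no difference given here was tested.

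The protein of MKI67 coats condensed chromosomes and marks cycling cells, and TOP2A is the topoisomerase that untangles sister DNA. Cyclin A2 and the B cyclins (CCNA2, CCNB1, CCNB2) bind the kinase CDK1 and drive entry into mitosis, after which they are degraded. AURKA and PLK1 are kinases of the spindle poles and of mitotic entry, AURKB is the kinase of the chromosomal passenger complex, and BUB1 is a kinase of the spindle checkpoint at kinetochores. In human cells transcripts of most of these genes accumulate late in the cycle, through S phase and G2, and are scarce in resting cells. Primordial germ cells are known to multiply while they migrate and colonise the gonad, and in the male they later enter a period of mitotic arrest.

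Levels are given as RPM, reads scaled to a common total per cell, so the amount of RNA per cell could not be read from them. Depth lay between 472188 and 3556592 reads per cell, and 15 RPM, the level counted here as reached, stood for 7.08 to 53.3 reads. A count of 0 reads allows up to 3 reads, which is 0.844 to 6.35 RPM depending on the cell. Each cell reached that level for 5102 to 8106 genes. By genes outside the cell cycle lists, 26 cells formed a germ-cell-like cluster with 12 of 14 germ cell markers at a median of 15 RPM or more. The other 8 cells, E16 cell 8 and E20 cells 1 to 7, formed a mesoderm-like cluster with 7 of 10 mesoderm markers at that level. E16 cell 8 also reached 15 RPM for 8 of 8 endoderm markers. Codes in the sample titles followed the stages, MS10 at E13, MS13 at E14, MS09 for E16 and E20 cell 8, MS08 for the other E20 cells, and MS11 for E17 and all gonad cells. In the gonad, E36 cell 5 and E55 cell 2 each reached 15 RPM for 9 of 18 markers of gonadal somatic cells, and the E47 cell for 13.

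All 34 cells reached 15 RPM for at least 3 of the 10 mitotic genes, and 16 cells reached it for all 10. In gonad cells 3 of 9 reached 15 RPM for 8 or more of the genes (33.3%, exact Clopper-Pearson 95% interval 7.49 to 70.1%), against 21 of 25 embryo cells (84.0%, 63.9 to 95.5%). All 10 genes were reached in 2 gonad cells and in 14 embryo cells. The intervals overlap, and they treat cells as independent draws. By stage, 8 or more genes were reached in 3 of 3 cells at E13, in the E14 cell, in 9 of 11 cells at E16, in 1 of 2 at E17 and in 7 of 8 at E20. In the gonad it was 1 of 6 cells at E36, not the E47 cell, and both cells at E55.

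Cells that reached fewer than 8 genes were most numerous at E36. Others were at E16, E17, E20 and E47, and none at E13, E14 or E55. In 3 embryo cells 3 to 5 genes were reached, E17 cell 1 with 3, E16 cell 2 with 4 and E16 cell 1 with 5, and E20 cell 7 reached 6. At E36, cells 1, 2, 3, 4 and 6 reached 7, 4, 5, 3 and 4 genes. The E47 cell reached 6. E17 cell 1 and E36 cell 4 stood lowest in the whole set, and the other E17 cell reached all 10. Few values sat near the limit: of 340 values, 275 were at 15 RPM or more, 209 were at 50 RPM or more and 19 lay between 10 and 20 RPM. The nearest inside was PLK1 in E16 cell 7 at 15.2 RPM, and the nearest outside was AURKA in E13 cell 1 at 14.8 RPM.

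**Figure D1:**
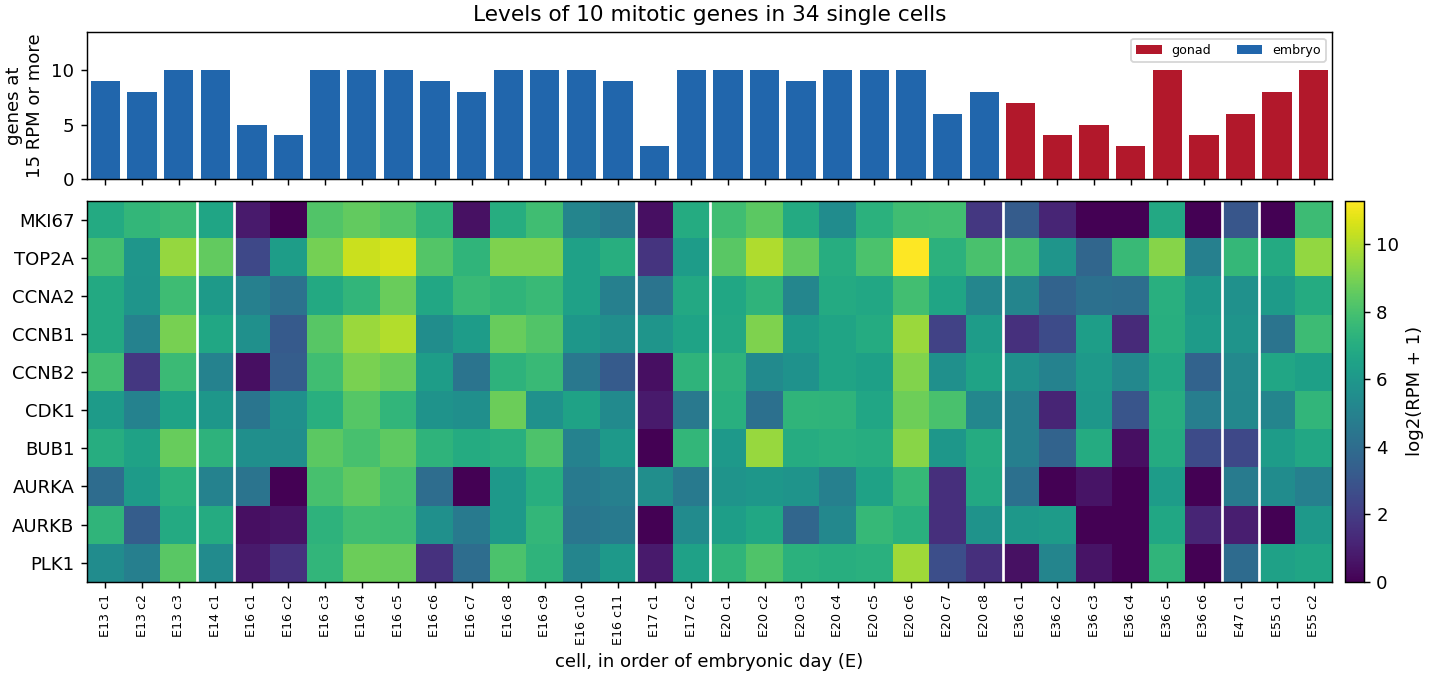
Levels of the 10 mitotic genes, as log2(RPM + 1) in the colour scale, in 34 single cells ordered along the x axis by embryonic day, with white lines between stages. The bars above count the genes at 15 RPM or more in each cell: 16 cells stand at 10, and the 2 lowest bars, E17 cell 1 and E36 cell 4, stand at 3.

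The mean log2(RPM + 1) over the 10 genes summarised each cell. By stage it was 6.61 ± 1.37 at E13 (SD, n = 3 cells), 6.39 in the E14 cell, 6.16 ± 2.07 at E16 (n = 11), 4.12 ± 3.0 at E17 (n = 2) and 6.69 ± 1.21 at E20 (n = 8). In gonads it was 3.92 ± 1.74 at E36 (n = 6), 4.48 in the E47 cell and 5.89 ± 1.61 at E55 (n = 2). Ordered from the highest, the stages ran E20, E13, E14, E16, E55, E47, E17 and E36. No step between neighbours in that order exceeded the larger SD of the stages on either side. Cells of a single stage spanned most of the range, from 2.99 to 8.68 at E16 and from 2.18 to 7.14 at E36.

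**Figure D2:**
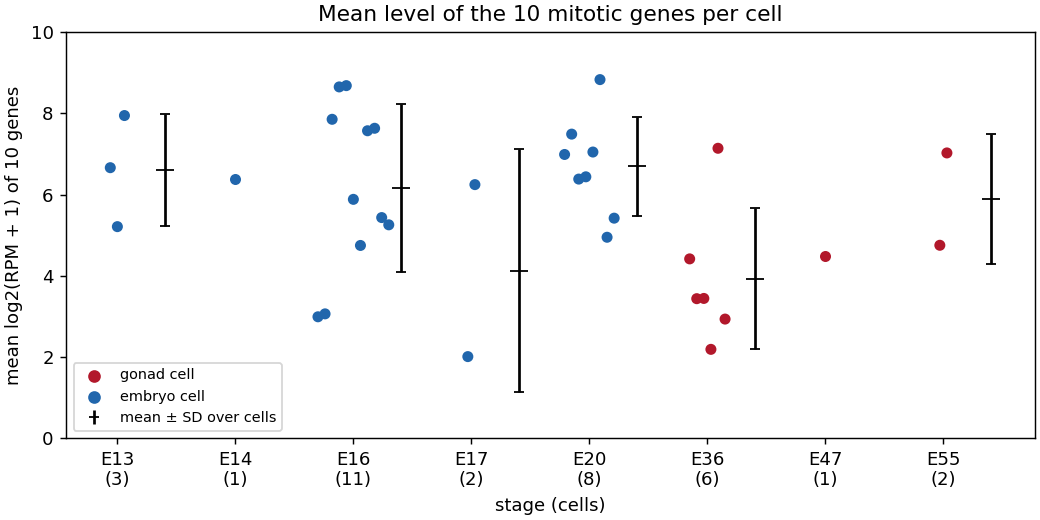
Mean log2(RPM + 1) of the 10 mitotic genes in each cell (points) by embryonic stage, with the number of cells under each stage and the mean ± SD over cells beside the points where there are 2 or more. The E16 cells spread from 2.99 to 8.68, and 5 of the 6 E36 cells lie below all but 3 of the embryo cells.

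MKI67, the marker of cycling cells on chromosome 9 of the table, was plentiful in most embryo cells and nearly missing from most gonad cells. It had 121, 179 and 209 RPM at E13 and 97.8 RPM at E14. At E16 its lowest, median and highest values were 0, 131 and 387 RPM, at E17 it had 0.373 and 122 RPM, and at E20 the 3 values were 2.58, 186 and 354 RPM. At E36 they were 0, 0.616 and 111 RPM, the E47 cell had 7.26 RPM, and the E55 cells had 0 and 211 RPM. Thus 2 of 9 gonad cells, E36 cell 5 and E55 cell 2, reached 15 RPM, against 20 of 25 embryo cells, and 4 gonad cells and 1 embryo cell held no read. The groups overlapped at both ends. In all, MKI67 averaged 37.7 ± 74.3 RPM in gonad cells (SD, n = 9), against 146 ± 118 RPM in embryo cells (n = 25), and the difference of mean log2(RPM + 1) was -3.47. Summed over cells the reads gave 42.8 RPM (exact Poisson 95% interval 39.6 to 46.2) in gonad and 141 RPM (138 to 145) in embryo cells. These intervals cover the counting error of reads only, and they are far narrower than the spread between cells. Amplified cDNA was read without molecular identifiers, so the intervals do not give the counting error of molecules.

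TOP2A, the DNA topoisomerase on chromosome 16, was reached in nearly every cell, in 8 of 9 gonad and 23 of 25 embryo cells. Gonad cells ran from 12.2 RPM over a median of 184 to 708 RPM, and embryo cells from 2.24 over 277 to 2520 RPM. The groups overlapped almost wholly: E20 cell 6 was highest, and E17 cell 1 lowest. The mean was 243 ± 252 RPM in gonad cells, against 474 ± 585 RPM in embryo cells, with a difference of -0.74, short of the 2-fold level of -1 used here. It passed that level without E36 cell 5 (-1.02) or E55 cell 2 (-1.05). Of the 12 cells under 15 RPM for MKI67, 9 still reached it for TOP2A. The 3 cells under 15 RPM for TOP2A, E16 cell 1, E17 cell 1 and E36 cell 3, were also under it for MKI67, AURKB and PLK1.

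CCNA2, the cyclin of S phase and G2 on chromosome 5, was the most widely reached of the 10 genes. It was at 15 RPM or more in 33 of 34 cells, the exception being E36 cell 2 with 11.1 RPM. Gonad cells had 11.1, 50.8 and 139 RPM as lowest, median and highest values, and embryo cells had 18.4, 108 and 425 RPM. The ranges overlapped, but the median of the gonad cells lay below that of the embryo cells. CCNA2 averaged 58.5 ± 46.5 RPM in gonad cells, against 122 ± 89.96 RPM in embryo cells, a difference of -1.10, which was -0.87 without E36 cell 2, -0.95 without E36 cell 3 and -0.93 without E36 cell 4. All 11 cells under 15 RPM for PLK1, and all 11 under it for AURKB, reached it for CCNA2.

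The B cyclins differed in their means of log values. CCNB1, the main partner of CDK1 at mitotic entry, on chromosome 6, had 1.54, 56.2 and 216 RPM as lowest, median and highest values in gonad cells, against 3.73, 95.5 and 1031 RPM in embryo cells. It was under 15 RPM in 3 of the 6 E36 cells, with 2.01, 4.93 and 1.54 RPM in cells 1, 2 and 4, and in only 2 embryo cells. CCNB1 averaged 65.4 ± 72.3 RPM in gonad and 235 ± 284 RPM in embryo cells, a difference of -2.05. CCNB2, a second B cyclin on chromosome 7, had 11.1, 49.4 and 110 RPM in gonad cells, a narrower range than the 0.368, 84.3 and 577 RPM of embryo cells. Of its 6 cells under 15 RPM, 5 were embryo cells. CCNB2 averaged 59.1 ± 34.0 RPM in gonad and 138 ± 160 RPM in embryo cells, and its difference of -0.19 was close to the median of all measured genes, -0.17. As a log2 ratio of mean RPM it was -1.21. With medians over cells both B cyclins were within 2-fold, CCNB1 at -0.75 and CCNB2 at -0.76.

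CDK1, the kinase that these cyclins activate, was under 15 RPM in 3 cells, E17 cell 1 with 0.747 RPM, E36 cell 2 with 1.23 RPM and E36 cell 4 with 6.93 RPM. Gonad cells ran from 1.23 over 33.8 to 170.2 RPM and embryo cells from 0.747 over 72.0 to 447 RPM, so the ranges overlapped. The mean was 55.4 ± 57.5 RPM in gonad and 121 ± 123 RPM in embryo cells, a difference of -1.22, which was -0.75 without E36 cell 2 and -0.98 without E36 cell 4. The level of CDK1 is uncertain, because the table holds a second row with the macaque symbol CDK1 and no human symbol, on chromosome 6 where the row used is on chromosome 9. The second row held 16.3% of the reads of both rows and varied with the first across cells (Pearson r 0.88, n = 34 cells), and the way reads were divided between the rows is not given in the sources used here. It exceeded the first row in E36 cell 2 alone, with 2.46 against 1.23 RPM.

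BUB1, the checkpoint kinase on chromosome 13, reached 15 RPM in 24 of 25 embryo cells and in 5 of 9 gonad cells. The exceptions were E17 cell 1 with 0 RPM, E36 cells 2, 4 and 6 with 11.1, 0.385 and 4.94 RPM, and the E47 cell with 4.54 RPM. Lowest, median and highest values were 0.385, 28.1 and 122 RPM in gonad cells, against 0, 131 and 747 RPM in embryo cells. All gonad values lay below the median of the embryo cells and within their range. BUB1 averaged 52.8 ± 53.4 RPM in gonad and 195 ± 184 RPM in embryo cells, a difference of -2.38.

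The Aurora kinases and PLK1 had the most cells with few or no reads beside MKI67. AURKA, the kinase of the spindle poles on chromosome 10, had 0, 0.245 and 74.7 RPM as lowest, median and highest values at E36, where 3 of 6 cells held no read. It had 25.4 RPM in the E47 cell and 44.1 and 29.7 RPM in the E55 cells. At E16 its values were 0, 28.9 and 376 RPM, and at E20 1.87, 59.6 and 188 RPM. AURKA averaged 21.3 ± 25.7 RPM in gonad and 84.3 ± 94.7 RPM in embryo cells, a difference of -2.43. In the order of its stage means, over stages of 2 or more cells, the step between E36 and its neighbour E16 exceeded the larger SD, and no other step of any of the 10 genes did.

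AURKB, the kinase of the passenger complex on chromosome 16, was high in some cells of a stage and nearly missing from others. At E36 it had 64.2, 72.7 and 104 RPM in cells 1, 2 and 5, and 0, 0 and 1.24 RPM in cells 3, 4 and 6. The E47 cell had 0.907 RPM, and the E55 cells had 0 and 68.1 RPM. Embryo cells ran from 0 over 55.3 to 227 RPM, with 19 of 25 at 15 RPM or more. AURKB averaged 34.6 ± 42.0 RPM in gonad and 82.5 ± 75.0 RPM in embryo cells, a difference of -2.23.

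PLK1, the polo kinase on chromosome 13 of the table, had 164.7 RPM in E36 cell 5 and 34.5 RPM in E36 cell 2, and between 0 and 0.489 RPM in the other 4 cells of that stage. The E47 cell had 14.5 RPM, and the E55 cells had 88.1 and 99.95 RPM. Both E55 cells thus stood above all E36 cells except cell 5. Embryo cells ran from 0.737 over 86.5 to 818 RPM, and 6 of 25 were under 15 RPM. PLK1 averaged 44.7 ± 59.4 RPM in gonad and 153 ± 191 RPM in embryo cells, a difference of -2.27.

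The gonad cells were compared with the embryo cells to ask how the mitotic genes stood in the gonad after the embryonic stages. Of the 10 genes 8 were lower in the gonad by at least 2-fold and 0 were higher, where 15.1% of 15245 measured genes were at least 2-fold lower and 7.62% at least 2-fold higher. TOP2A and CCNB2 were the 2 within that limit. The median difference was -2.14 over the 10 genes and -0.17 over all measured genes, those averaging 1 RPM or more in either group. MKI67 stood lowest, with 0.151% of the measured genes below it. No gene of the 10 had groups without overlap, and of all measured genes 0 (0%) were lower without overlap.

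Several features of the cells moved with this difference. Within label code MS11, the 9 gonad cells against the 2 E17 cells, the median difference was 0.073, with 3 genes lower and 3 higher, where 23.1% of all measured genes were lower and 25.6% higher. There CDK1 stood at 2.28, BUB1 at 0.80 and AURKB at 0.28, opposite in sign to the comparison of all cells, and TOP2A at 3.08 and CCNB2 at 1.74. The 3 lower genes were MKI67, CCNB1 and AURKA. This comparison rests on 2 cells that differ widely, since E17 cell 1 reached 3 genes and E17 cell 2 reached 10. E17 cell 2, though of the germ-cell-like cluster, also reached 15 RPM for 7 of 10 mesoderm markers (676 RPM summed) and 4 of 8 endoderm markers (1570 RPM). The part of this in the comparison was not tested. Stage, organ and label code otherwise coincide and cannot be told apart.

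The 2 gonad cells that reached all 10 genes, E36 cell 5 and E55 cell 2, were among the 3 with transcripts of gonadal somatic cells. The 18 somatic markers summed to 1218 RPM in E36 cell 5, 22022 RPM in the E47 cell and 829.3 RPM in E55 cell 2, and the other 6 gonad cells had 1 to 4 markers at 15 RPM or more and sums of 36.9 to 484 RPM. Embryo cells had 1 to 6 markers and 89.0 to 1801 RPM. INSL3 (15703 RPM) and CYP17A1 (3053 RPM) stood highest in the E47 cell, and LHX9 (330 RPM) in E36 cell 5. In E55 cell 2 it was GATA4 (243 RPM), which every gonad cell reached. Of the 18 markers 12 were at least 2-fold higher in the gonad and 2 lower, beside 7.62% and 15.1% of all measured genes. PDGFRB, a receptor of stromal cells, was 1 of the 2 lower, at 0 in every gonad cell. Of 14 germ cell markers E36 cell 5 reached 10, the fewest of the gonad cells, the E47 cell 14 and E55 cell 2 13. The other gonad cells reached 12 to 14. Without the 3 cells with somatic transcripts the median difference of the 10 genes was -2.91, with 9 genes lower. The median over all measured genes was then -0.39, and 25.5% of them were lower. Within the germ-cell-like cells alone the median of the 10 genes was -1.76, with 6 genes lower where 13.96% of all measured genes were. There CCNA2 (-0.96) and CDK1 (-0.70) were within 2-fold. The part of somatic transcripts in the levels of the 2 cells was not tested.

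Markers of mesoderm and of blood and endothelium also moved with organ. Where 15.1% of all measured genes were lower in the gonad and 7.62% higher, 9 of the 10 mesoderm markers were lower by at least 2-fold (median -1.98). Gonad cells reached 15 RPM for 0 to 2 of them, with sums of 6.93 to 395.9 RPM, and embryo cells for 1 to 9, with sums of 77.6 to 14603 RPM. HAND1 stood at -4.84 and FN1 at -4.47, and COL1A1, at -1.71, still reached 15 RPM in 4 gonad cells. TBX6, a mesoderm factor, was the exception at -0.94. It was at 0 in every gonad cell, but low in embryo cells too, at 6.13 ± 17.4 RPM, with 2 cells reaching 15 RPM. Of 7 measured blood and endothelium markers 4 were lower and 1 was higher (median -1.14), with 1 to 3 reached and sums of 19.0 to 287 RPM in gonad cells, and 1 to 5 reached and 26.5 to 2932 RPM in embryo cells. PTPRC, a gene of blood cells, was listed at 0 in all 34 cells. The part of these differences in that of the mitotic genes was not tested.

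**Figure D3:**
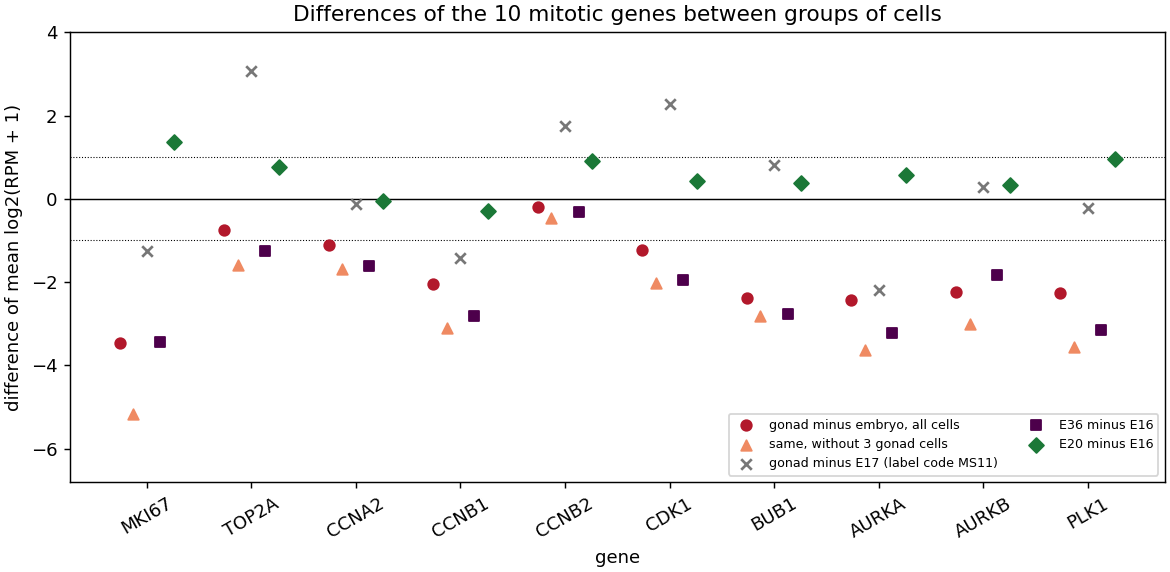
Difference of mean log2(RPM + 1) for each of the 10 mitotic genes between groups of cells; dotted lines mark 2-fold in either direction. Gonad minus embryo values lie below 0 for all 10 genes over all cells and without the 3 gonad cells with somatic transcripts, while the grey crosses, gonad minus E17 within a single label code, lie on both sides of 0.

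Among the gonad stages E36 had the most cells and the lowest mean of the 10 genes. It was set against E16, the embryo stage with the most cells, while E47 and E55 were not compared with E16. Of the 10 genes 9 were at least 2-fold lower at E36 and 0 were higher, where 30.2% of 14293 measured genes were lower and 7.28% higher. The median difference was -2.35 over the 10 genes and -0.48 over all measured genes. MKI67 stood at -3.43, AURKA at -3.23 and PLK1 at -3.16, followed by CCNB1 at -2.82 and BUB1 at -2.76. CDK1 stood at -1.95, AURKB at -1.83, CCNA2 at -1.63 and TOP2A at -1.24, and CCNB2 at -0.31 was the exception. TOP2A was within 2-fold when any 1 of E16 cells 4 and 5 and E36 cells 3 and 6 was left out, at -0.67 without E36 cell 3. AURKB was within it with a pseudocount of 10 RPM (-0.97), and CDK1 with medians over cells (-0.95). No gene of the 10 separated the stages without overlap, as 0.343% of the measured genes did in this direction. E36 cell 5 was the cell that overlapped most, and without it the median was -2.90. E36 cells 1, 2, 3, 4 and 6 reached 15 RPM for 5233 to 5767 genes of the table, fewer than any E16 cell (6171 to 8106), and E36 cell 5 for 6789. The part of this in the difference was not tested.

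E20 cells were set against the same E16 cells, so the comparison shares its E16 values with that of E36. None of the 10 genes was at least 2-fold lower at E20, and 1, MKI67, was higher, where 18.9% of 14998 measured genes were lower and 13.9% higher. MKI67 averaged 169 ± 114 RPM at E20 (n = 8) and 143 ± 144 RPM at E16 (n = 11), a difference of 1.37. That value rests on the E16 cells with almost no MKI67: it was 0.92, 0.84 and 0.89 without E16 cells 1, 2 and 7 in turn, and 2.06 without E20 cell 8. The log2 ratio of mean RPM was 0.24, and with a pseudocount of 10 RPM the difference of MKI67 was 0.77. With medians over cells MKI67 was within 2-fold at 0.47, while CDK1 (1.45), AURKA (1.02) and PLK1 (1.11) were higher. By means of log values PLK1 stood close to the limit at 0.95. It passed the limit at 1.03 with median-of-ratios scaling, at 1.64 without E20 cell 8, and with thinned reads. With E20 cell 8 as the only E20 cell, PLK1 was instead lower, at -3.65 against the germ-cell-like E16 cells. CCNB2 stood at 0.90, and at 1.23 without E16 cell 4. The median over the 10 genes was 0.50, beside -0.12 over all measured genes, and it was 0.22 without E20 cell 6 and 0.92 without E20 cell 7. No gene of the 10 was lower without overlap, as 0.133% of measured genes were.

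Cell class and label code moved with stage in this comparison. E20 cells 1 to 7 reached 15 RPM for 6 to 9 of 10 mesoderm markers, with sums of 1118 to 14201 RPM, while E20 cell 8 reached 2 (93.3 RPM). Among E16 cells, cell 8 reached 9 (14603 RPM), and the other 10 reached 2 to 4 (77.6 to 269.9 RPM). Their part in the result was not tested. Only E20 cell 8 shared its label code and its germ-cell-like class with E16 cells. Against the 10 germ-cell-like E16 cells this single cell had MKI67 at -3.30, PLK1 at -3.65 and AURKA at 1.85. Against all 11 E16 cells of its code these genes stood at -3.47, -3.91 and 1.74.

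The 10 genes varied together from cell to cell. The median Pearson r of log2(RPM + 1) over the 45 pairs was 0.65 in 34 cells, from 0.43 for CDK1 with AURKA to 0.79 for TOP2A with CCNB2. It was 0.69 in the 25 embryo cells and 0.55 in the 9 gonad cells. Within a stage it was 0.78 at E16, from 0.51 to 0.96, and 0.49 at E20, where 6 of the 45 pairs were below 0. PLK1 followed the mean of the other 9 genes most closely (r 0.84) and CDK1 least (0.68). The mean of the 10 genes had r 0.01 with log2 depth over 34 cells, -0.14 in embryo cells and 0.20 in gonad cells. Within E16 that r was 0.37, and within E20 -0.16. With the number of genes at 15 RPM or more the mean had r 0.51 over 34 cells. The part of depth or gene number in the joint variation was not tested.

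Some cells held part of the set at high levels and lacked the rest. E16 cell 7 had 198 RPM of CCNA2, 169 RPM of TOP2A and 125 RPM of BUB1, with 0.423 RPM of MKI67 and no read of AURKA. E20 cell 7 had 232 RPM of MKI67 and 265 RPM of CDK1, with 3.73 RPM of CCNB1, 5.60 RPM of PLK1 and 1.87 RPM each of AURKA and AURKB. E20 cell 8 showed another mix, with 111 RPM of AURKA and 124 RPM of BUB1 beside 2.58 RPM of MKI67 and 1.84 RPM of PLK1. In the gonad, E36 cell 2 had 72.7 RPM of AURKB and 34.5 RPM of PLK1 with 1.23 RPM of CDK1, and E55 cell 1 had 88.1 RPM of PLK1 and 119.9 RPM of TOP2A with no read of MKI67 or AURKB. Of the 12 cells under 15 RPM for MKI67, 11 reached it for CCNA2, 4 for AURKB and 3 for PLK1.

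The close relatives of the 10 genes did not share their pattern as a list. Of 9 measured relatives 2 were lower in the gonad by at least 2-fold and 1 was higher, and their median difference was 0.01, counts near the 15.1% and 7.62% of all measured genes. The lower pair was BUB1B, the checkpoint pseudokinase BubR1 (15.7 ± 28.0 RPM in gonad and 68.2 ± 83.0 RPM in embryo cells, -2.45), and CDK2, the kinase of S phase (33.1 ± 28.2 and 89.6 ± 49.6 RPM, -2.20). TOP2B, the topoisomerase of non-dividing as well as dividing cells, stood at 0.01. AURKC, the Aurora kinase of germ cells, was higher, with 16.6 ± 27.2 RPM in gonad and 2.13 ± 5.00 RPM in embryo cells (1.21). It was confined to few cells: 62.2 and 62.8 RPM in E36 cells 1 and 2, 24.5 RPM in the E47 cell, and 0 to 0.340 RPM in the other 6 gonad cells.

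Regulators of mitotic entry were lower in gonad cells in 8 of 17 measured members and higher in 0, beside 15.1% and 7.62% of all measured genes. Their median was -0.80. FOXM1, the transcription factor of late cycle genes, averaged 7.22 ± 13.6 RPM in gonad and 29.8 ± 33.4 RPM in embryo cells (-2.38), while MYBL2, its partner factor, averaged 78.8 ± 54.3 and 103.9 ± 77.1 RPM (-0.11). PKMYT1 and WEE1, kinases that inhibit CDK1, stood at -2.86 and -1.80, and the phosphatase CDC25C, which activates it, at -1.77. Of the related phosphatases CDC25A was also lower, at -1.08, while CDC25B stood at -0.50. CDC25B and MYBL2 were within 2-fold, so entry regulators did not all follow the 10 genes. At E36 against E16, 11 of 17 were lower and 0 higher, beside 30.2% and 7.28% of all measured genes. There GTSE1, a G2 and S phase protein, stood at -4.32 and FOXM1 at -3.34.

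Partners of the kinases at the spindle and kinetochore resembled the 10 genes more closely. Of all measured genes, 15.1% were lower in gonad cells and 7.62% higher. Passenger complex and spindle genes were lower in gonad cells in 16 of 20 members (0 higher, median -1.56), with ASPM of the spindle poles at -3.12, TACC3, a substrate of AURKA, at -3.01, and BIRC5, the survivin subunit that sits with AURKB, at -2.95. Of 17 checkpoint and anaphase genes 10 were lower and 1 higher (median -1.47), with the separase gene ESPL1 at -3.46 and the cohesin protector SGOL2 at -2.95. The higher one was FZR1, the activator of the anaphase-promoting complex in G1, at 1.01, with 13.01 ± 9.53 RPM in gonad and 9.54 ± 12.8 RPM in embryo cells. Of 17 kinetochore and condensin genes 11 were lower and 0 higher (median -1.74), with the centromeric histone CENPA at -2.96 and the condensin subunit NCAPG at -2.85. At E36 against E16 these lists had 16 of 20, 10 of 17 and 11 of 16 members lower and 0 higher. Beside them, 30.2% of all measured genes were lower and 7.28% higher. The list medians were -2.16, -2.12 and -2.69.

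**Figure D4:**
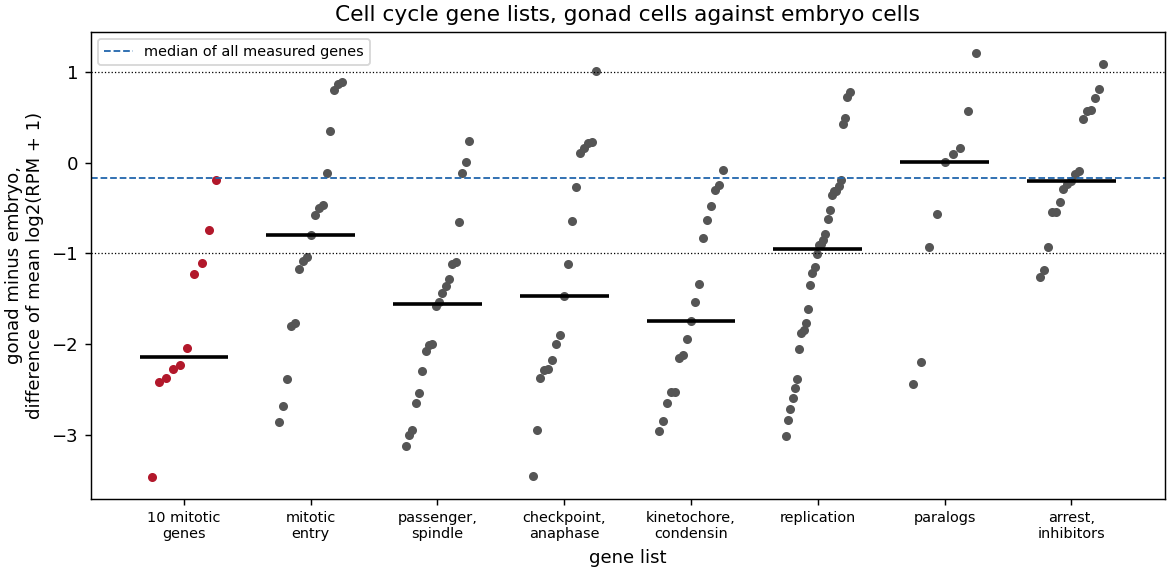
Difference of mean log2(RPM + 1), gonad minus embryo, for each measured gene (points) of the 10 mitotic genes and 7 cell cycle lists, with the list median as a bar. The dashed line is the median of all measured genes (-0.17) and dotted lines mark 2-fold; the list medians run from -2.14 for the 10 genes to 0.01 for their relatives.

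DNA replication genes were lower in gonad cells in 15 of 30 members and higher in 0, beside 15.1% and 7.62% of all measured genes. Their median was -0.96. RRM2, a subunit of the enzyme that makes deoxyribonucleotides, averaged 48.9 ± 73.5 RPM in gonad and 200.5 ± 201 RPM in embryo cells (-3.02), and the licensing factor CDT1 stood at -2.84. PCNA (-0.18) and the helicase subunit MCM4 (0.50) did not share this difference. At E36 against E16, 17 of 30 were lower and 1 higher, beside 30.2% and 7.28% of all measured genes. At E20 against E16 the list leaned the other way, with 9 of 30 higher and 2 lower, beside 13.9% and 18.9%. Its median there was 0.50. TK1, a salvage kinase for thymidine, averaged 131 ± 125 RPM at E20 and 26.9 ± 36.3 RPM at E16 (3.72), and UHRF1, which brings maintenance DNA methylation to new DNA, 130.8 ± 97.8 and 16.1 ± 24.5 RPM (3.49). CCNE1, the cyclin of S phase entry, stood at 2.73.

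Replication genes did not run in parallel with the 10 mitotic genes among embryo cells. The mean of the mitotic genes correlated with that of the kinetochore and condensin genes at r 0.93 in 25 embryo cells and 0.92 in 9 gonad cells, and without the 2 gonad cells farthest from the median, E36 cell 5 and E55 cell 2, the gonad value was 0.60. Without the same 2 cells the gonad value was -0.025 for passenger complex and spindle genes, against 0.81 with them, -0.057 against 0.76 for checkpoint and anaphase genes, and 0.18 against 0.76 for entry regulators. With the replication genes it was 0.24 in embryo cells, and -0.33 without E17 cell 1 and E16 cell 1. In gonad cells it was 0.85, and 0.72 without E36 cell 5 and E55 cell 2. Within E16 it was 0.02, and -0.60 without cells 1 and 2, and within E20 it was -0.65, and -0.37 without cells 6 and 7. These are descriptions over cells of unnamed animals.

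The E16 cells showed the pattern one by one. E16 cells 3, 4, 5 and 9, with the highest mitotic means of the stage (7.63 to 8.68), had replication means of 4.31 to 5.31, and TK1 was at 0, 4.14, 0 and 0 RPM in them. E16 cells 6, 7 and 10 had mitotic means of 4.74 to 5.88, replication means of 6.05 to 6.32 and 74.3 to 82.8 RPM of TK1. TK1 was picked after being seen, and not every replication gene split these cells. PCNA had 95.6 to 342 RPM in cells 3, 4, 5 and 9, and 549 to 687 RPM in cells 6, 7 and 10. RRM2 overlapped, with 24.2 to 143.9 and 68.3 to 172 RPM. E16 cells 1 and 2 were low for both sets, with mitotic means of 2.99 and 3.06 and replication means of 4.42 and 4.63, and had 0 and 6.63 RPM of TK1. E16 cell 11 had means of 5.25 and 4.80 and no read of TK1, and E16 cell 8, of the mesoderm-like cluster, had 7.57 and 6.07 with 48.3 RPM of TK1. In the gonad, E55 cell 2 was high for both (7.03 and 6.42) and E36 cell 4 low for both (2.18 and 3.02).

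**Figure D5:**
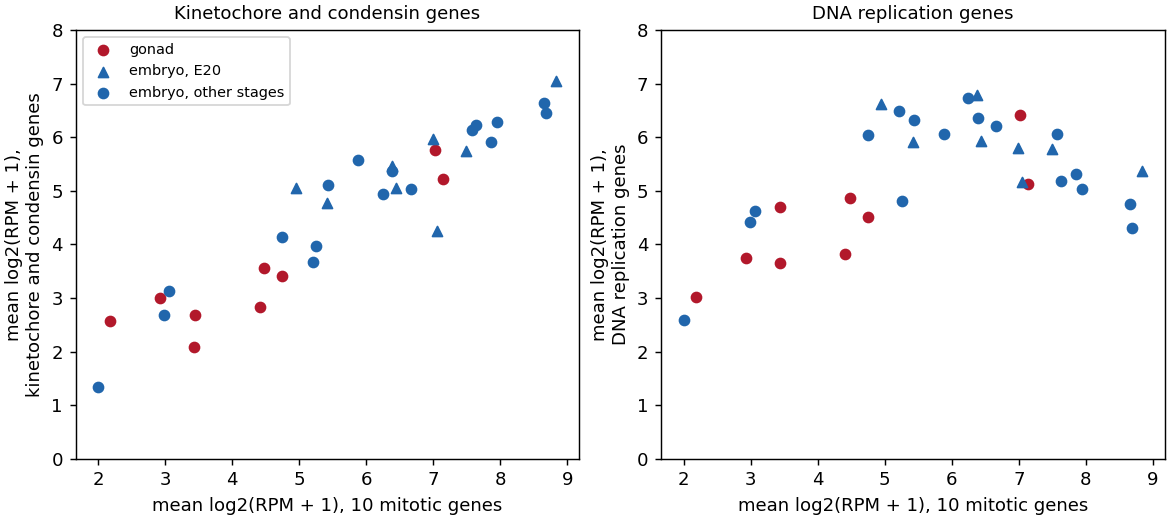
Mean log2(RPM + 1) of kinetochore and condensin genes (left) and of DNA replication genes (right) against the mean of the 10 mitotic genes in each of 34 cells, gonad cells in red and embryo cells in blue with E20 as triangles. The left panel is close to a line (r 0.94 in all 34 cells), while in the right panel (r 0.51) the 3 embryo cells with the highest mitotic means have replication means of 4.31 to 5.38.

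Genes of cell cycle arrest did not form a counterpart. Of 17 measured arrest and inhibitor genes 1 was higher in the gonad by at least 2-fold and 2 were lower, where 7.62% of all measured genes were higher and 15.1% lower, and the median was -0.20. The higher one was FOXO3, a transcription factor of quiescence (75.9 ± 63.2 RPM in gonad and 44.1 ± 50.5 RPM in embryo cells, 1.09). The inhibitors CDKN1B (0.82), CDKN1A (0.58) and CDKN1C (0.58) were within 2-fold, and the gonad mean of CDKN1C, 246 ± 680 RPM, came from 2058 RPM in the E47 cell. BTG1, an antiproliferative gene, stood at -1.26. At E36 against E16, 0 of 15 were higher and 7 lower, beside 7.28% and 30.2% of all measured genes. At E20 against E16, 6 of 17 were higher and 2 lower, beside 13.9% and 18.9%, with GAS1, a growth arrest gene, at 3.07.

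Outside the 10 genes, those whose log2(RPM + 1) followed their mean most closely over 34 cells included genes of the spindle and chromosomes. Among 7836 genes at 15 RPM or more in at least 10 cells, 39 had a Pearson r of 0.7 or more, where the median was 0.12. DLGAP5, a microtubule binder of the spindle, had r 0.88 (0.91 in embryo and 0.77 in gonad cells), TROAP 0.87, ASPM 0.85, UBE2C, the ubiquitin conjugase of the anaphase-promoting complex, 0.82, NCAPG 0.82 and the AURKA activator TPX2 0.82. Of the 20 highest, 12 belonged to the cell cycle lists above, as did 1.43% of the genes compared. The other 8 included RAB5B, a GTPase of endosomes (r 0.78), and TUBA1B, an alpha tubulin (0.77). KPNA2, an importin, was also among them, with r 0.90 in embryo cells and 0.27 in gonad cells, a difference that was not tested.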

How the data were processed

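Transcripts of 34 single cells were measured by SC3-seq. The authors deposited 1 expression table in log2 units, log2(RPM + 1), a scale read from the values themselves: back-transformed, each column sums to between 992085 and 995711 RPM. Cutadapt 1.3, TopHat 1.4.1 and Cufflinks 2.2.0 are listed, per the submitters' processing notes, without their roles. For the genome build and the assignment of reads to similar genes, the details were not given in the sources used here. Low values were whole multiples of 1 read, within 0.1 read, for 99.7 to 100% of those in a cell, which gave each cell's reads. All 10 gene identifiers carry the same symbols in RefSeq's annotation, but the deposited macaque symbols of CDK1, AURKA and PLK1 were placeholders.

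Values were back-transformed to RPM (Python 3.11.15, NumPy 2.4.6, pandas 2.3.3, SciPy 1.17.1, scikit-learn 1.9.0). With 1 sample per stage no test was made. A difference is that of mean log2(RPM + 1), counted as lower or higher from -1 or 1, and SD is the spread between cells. Steps across all genes were tested on simulated data. Cell classes came from Ward clustering of the 1000 most variable genes outside the cell cycle lists, cut at 2 clusters (silhouette 0.162, the same classes in 4 other settings).

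The 10 genes and the lists were chosen with earlier results of these data known. Relatives, entry regulators and arrest genes could each be named, of other lists the 4 measured members with the largest difference and any exception, and of genes like the 10 the 20 highest and 10 lowest by r. PCNA and MCM4, and single-cell values of TK1, PCNA and RRM2, were named after being seen. Alternatives covered the pseudocount, medians and ratios, scaling, thinning, filters, thresholds, label code, cell class and leaving out each cell. Summing both CDK1 rows, and leaving out the 3 somatic-rich gonad cells within the germ-cell-like class, were chosen after seeing the data. A planned promoter motif search was not run, because no sequence was used here.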

Additional observations from a re-analysis of the deposited data

Results flagged for a closer look

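In the stages with 4 to 10 cells, E20 and E36, the lowest and highest cell of each of 22 sets of values was screened for a gap to its neighbour that was large for the range, and 3 sets had such a cell, all at E20. Chance flags about 1 in 20 such groups. MKI67 in E20 cell 8 stood at 1.84 on the log2(RPM + 1) scale, with the nearest cell at 5.48. CCNB1 in E20 cell 7 stood at 2.24, with the nearest cell at 6.18. AURKA in the same cell stood at 1.52, with the nearest cell at 4.92. E20 cell 8 is the E20 cell of label code MS09 and of the germ-cell-like cluster, and E20 cell 7 belongs to the mesoderm-like cluster.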

How the results depend on the processing

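Each stage is 1 sample and no animal is named, so sizes below describe these cells. No paired analysis was possible because replicate numbers only name the cells. Gonad against embryo, the median difference of the 10 genes kept its sign under every alternative except label code MS11, where it was 0.073 with 3 genes lower (CDK1 2.28, BUB1 0.80, AURKB 0.28). Elsewhere it ran from -1.27 with a pseudocount of 10 RPM (6 genes lower, 3.38% of all genes) to -2.91 without the 3 somatic-rich cells (9 lower). With a cell left out it ran from -2.52 to -1.73, with 6 to 9 genes lower, and CDK1 was -0.75 and CCNA2 -0.87 without E36 cell 2. For E36 against E16 it ran from -2.90 to -1.83 with a cell left out, with 8 to 9 genes lower. It was -1.57 with a pseudocount of 10 RPM (8 lower) and -1.69 as log2 ratios of mean RPM (10 lower). For E20 against E16 the median ran from 0.22 to 0.92 and 0 genes were lower with a cell left out. With E20 cell 8 alone it was -0.31 with 3 genes lower against germ-cell-like E16 cells (MKI67 -3.30) and -0.40 with 4 lower within label code MS09 (MKI67 -3.47). Gonad cells with 8 or more genes were 5 of 9 at 5 RPM or with 6 genes asked for, and 2 to 3 with a cell left out. Embryo cells were 12 of 25 at 50 RPM, and 20 to 21 with a cell left out. The causes were not tested.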

Other observations

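At the other end of the genes ranked by their correlation with the mean of the 10 mitotic genes stood genes of translation. Over 34 cells the lowest Pearson r was -0.64 for RPL23, a ribosomal protein gene, followed by EIF3H, a subunit of an initiation factor, at -0.59, GNB2L1, the ribosome-bound protein RACK1, at -0.59 and RPS6 at -0.57. RPL23 stood at -0.69 in embryo cells and -0.46 in gonad cells. No gene reached -0.7. RPM is a share of the reads of a cell, and the part of this scaling in the negative values was not tested.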
